A study of Mus musculus with 5 samples.

Results

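The effect of α-amanitin on the 4C signal of the β-major promoter was described by distance from the viewpoint and by chromosome. Of the 5 samples of the series, 4 were used, chosen by their titles: 2 untreated (A and B) and 2 treated with α-amanitin (A and B). All were single cell suspensions of mouse fetal liver at embryonic day 14.5, held in erythroid differentiation medium. The untreated cells and the α-amanitin treated cells were both cultured for 5 h, and no genotype or strain is given in the sources used here. The labels give the dose of α-amanitin as 100 mg/ml, where the methods have 100 µg/ml. Each of the 4 samples gave the signal of 385000 probes, of which 384666 lay on 7 mouse chromosomes. Chromosome 7, which carries the β-globin locus, had 57765 probes, and chromosomes 8, 10, 11, 12, 14 and 15 had between 48584 and 60933 each. The A samples were read in Cy3 and the B samples in Cy5, so letter and dye cannot be told apart. The duplicates are described as independently processed samples, but whether they came from separate litters is not stated, so the p-values measure only the spread between these samples. Arrays have no read depth, and their number limits the precision of every value.

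The β-globin locus holds the genes for the β chains of haemoglobin and is very highly transcribed in fetal liver, where most cells are erythroid. Its upstream locus control region loops onto the β-major promoter. α-Amanitin binds RNA polymerase II and stops both initiation and elongation. In 4C, cross-linked chromatin is cut, ligated and amplified outward from a chosen fragment, the viewpoint, so that probes near fragments captured with it light up. Signal is densest next to the viewpoint because chromatin close along the fibre meets often. Contacts with other parts of the same chromosome (in cis) are sparser, and those with other chromosomes (in trans) are sparser still. The question here was whether blocking transcription changed the amount of signal at any of these ranges.

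From the viewpoint window to the class from 5 to 10 Mb, the mean log2 signal in cis fell with distance in all 4 arrays. From there to 10 to 20 Mb it rose in untreated A (9.48 to 9.53) and α-amanitin B (9.53 to 9.56). In α-amanitin A it rose from 10 to 20 Mb to 20 to 40 Mb (9.33 to 9.36). As the mean of log2 signals after quantile normalization, the treated and untreated arrays overlapped in all 7 distance classes outside the viewpoint. As the log2 of the mean signal both treated arrays were lower in the classes to 0.5 Mb and from 0.5 to 2 Mb, and without quantile normalization in 6 of the 7. The spread between duplicates was not even. The α-amanitin A array had less signal than the 3 other arrays in 6 of the 7 distance classes outside the viewpoint. The α-amanitin B array lay between the 2 untreated arrays in 6 of these 7 classes. Untreated B in turn was above untreated A in 6 of the 7 classes, and letter and dye go together. Within each dye the treated array was lower than the untreated one in the 6 classes between the viewpoint window and 40 Mb, with differences from -1.15 to -0.06 in Cy3 and from -0.22 to -0.02 in Cy5. For these reasons the α-amanitin arrays are given separately, and the differences of the distance classes are also given without α-amanitin A. This choice of array rests on its values, and 2 treated arrays cannot tell which of them is the odd one. Without α-amanitin B instead the difference was -1.25 to 0.5 Mb, -0.67 from 0.5 to 2 Mb and -0.33 from 2 to 5 Mb. It was -0.16 from 5 to 10 Mb, -0.22 from 10 to 20 Mb, -0.09 from 20 to 40 Mb and 0.01 over 40 Mb. Before any scaling the arrays also differed in contrast. The signal at the 95th percentile was 5.10 times the median in untreated A and 6.77 times in untreated B. It was 2.58 and 2.98 times the median in α-amanitin A and B, so that both treated arrays were lower.

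Signals were quantile normalized over the 4 arrays, which gives every array the same set of values and leaves only the rank of each probe to differ. The viewpoint was placed at the highest mean of 29 neighbouring probes, which lay at probe 37873 of chromosome 7 over the 4 arrays. Taken singly, the arrays had this maximum at probes 37865, 37873, 37870 and 37873 in the order untreated A and B, then α-amanitin A and B. Distances are approximate, counted in probes and converted at 60 kb per 29 probes. The side with the lower probe numbers, about 78.4 Mb long, is called centromeric, because the locus lies past the middle of the chromosome, and the other side, about 41.2 Mb, telomeric. A probe is called bright where it was among the brightest 5% of its array, which after normalization was a signal above 2098. With 2 arrays against 2, the exact permutation test (two-sided) cannot give a p below 0.333.

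On the viewpoint itself the signal was at the top of the scale with and without treatment. The 29 probes centred on it were bright in all 4 arrays. Both follow largely from placing the viewpoint at the highest mean over all 4 arrays, treated and untreated together. The mean log2 signal of these probes was 15.94 and 15.91 in untreated A and B, and 15.86 and 15.90 in α-amanitin A and B. Both treated arrays were below both untreated ones, by 0.04 on average (exact permutation p = 0.333), near the top of the scanner range, where between 24 and 306 probes per array stood at 65535, the highest value in the files. Without α-amanitin A the difference was -0.02. The conditions overlapped when saturated probes were left out (difference -0.09, exact permutation p = 0.667, or -0.01 without α-amanitin A). They also overlapped with each array divided only by its own median, with 6.97 and 7.20 against 6.53 and 7.06. A window of 29 probes on either side of the viewpoint window was nearly as bright. On the centromeric side the log2 of the mean signal was 15.71 and 15.69 in untreated A and B against 15.52 and 15.56 in α-amanitin A and B. On the telomeric side it was 15.69 and 15.64 against 15.52 and 15.76, so the groups overlapped there.

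The stretch outside the viewpoint window to 0.5 Mb, which includes the pair of windows next to it, set α-amanitin A apart. Its 454 probes had a mean log2 signal of 12.89 and 13.08 in untreated A and B, and 11.74 and 12.99 in α-amanitin A and B. On this measure α-amanitin B fell between the untreated arrays, with a difference of -0.10 from untreated B, its partner in dye. Taken as the log2 of the mean signal, the values were 14.49 and 14.43 against 13.98 and 14.42 (difference -0.26, exact permutation p = 0.333). On that measure α-amanitin B was below both untreated arrays, though close to untreated B. The values that follow are again for the mean log2 signal. The mean difference was -0.62, with SDs of 0.14 between the untreated and 0.88 between the treated arrays (n = 2 each, exact permutation p = 0.667). Without α-amanitin A it was -0.001. The share of bright probes gave the same order, 70.5% and 77.5% in untreated A and B, and 47.6% and 74.2% in α-amanitin A and B. In α-amanitin A this was the case on both sides of the viewpoint: 42.7% of the centromeric and 52.4% of the telomeric probes were bright, against 65.6% to 80.6% in the other arrays.

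From 0.5 to 2 Mb the mean log2 signal of 1450 probes was 10.33 and 10.65 in untreated A and B, and 9.82 and 10.43 in α-amanitin A and B. The difference between the conditions was -0.37 (exact permutation p = 0.667), or -0.06 without α-amanitin A, and within the dyes it was -0.51 in Cy3 and -0.22 in Cy5. As the log2 of the mean signal the values were 12.389 and 12.391 against 11.94 and 12.34, without overlap (difference -0.25, exact permutation p = 0.333). Bright probes made up 27.4% and 35.2% in the untreated arrays, and 15.03% and 30.5% in α-amanitin A and B. Here the locus was not symmetric. The centromeric side had mean log2 signals of 10.73, 11.05, 10.09 and 10.92 in the order of arrays above, and the telomeric side 9.93, 10.25, 9.55 and 9.94. The centromeric side was thus brighter in every array, treated or not. The same held from 2 to 5 Mb, where the centromeric values ran from 9.62 in α-amanitin A to 10.08 in untreated B and the telomeric ones from 9.42 to 9.74 in the same arrays. From 5 Mb to 40 Mb the order was turned, and the telomeric side was the brighter in every array and class.

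**Figure D1:**
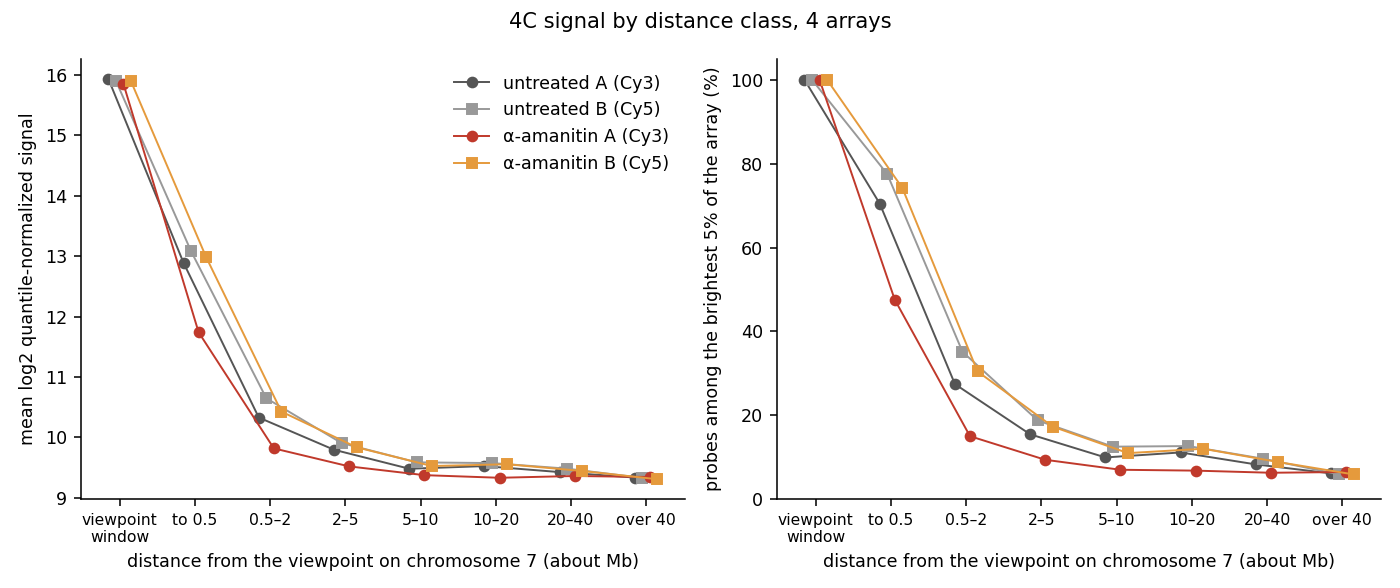
Signal by distance from the viewpoint on chromosome 7 for each of the 4 arrays, as the mean log2 quantile-normalized signal (left) and the percent of probes among the brightest 5% of the array (right). Points are single arrays, joined by lines within an array. α-Amanitin A is the lowest from the class to 0.5 Mb, where 47.6% of its probes were bright, out to 20 to 40 Mb.

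In the long-range classes the differences of the mean log2 signal were smaller. As the log2 of the mean signal the difference was -0.24 from 2 to 5 Mb, against -0.26 and -0.25 in the 2 nearer classes. Farther out it was -0.04 (5 to 10 Mb), -0.14 (10 to 20 Mb) and -0.06 (20 to 40 Mb). From 2 to 5 Mb the 2900 probes had mean log2 signals of 9.80 and 9.91 in untreated A and B, and 9.52 and 9.84 in α-amanitin A and B, a difference of -0.17, or -0.02 without α-amanitin A. From 5 to 10 Mb the values were 9.48, 9.59, 9.38 and 9.53, with a difference of -0.08, or -0.008 without α-amanitin A. From 10 to 20 Mb they were 9.53, 9.58, 9.33 and 9.56, with a difference of -0.11 that became 0.006 without α-amanitin A. From 20 to 40 Mb they were 9.43, 9.48, 9.36 and 9.45, with a difference of -0.05, or -0.01 without it. In each of these 4 classes the groups overlapped in the mean log2 signal, and its exact permutation p was 0.667. Over 40 Mb from the viewpoint, where 18539 of the 19098 probes were centromeric, the order of the arrays was no longer the same. The values were 9.34, 9.33, 9.35 and 9.31, and α-amanitin A was now the highest and α-amanitin B the lowest (difference -0.006, exact permutation p = 1, or -0.02 without α-amanitin A). The 559 telomeric probes at this distance had 9.47 and 9.51 in the untreated arrays and 9.40 and 9.45 in the treated arrays, without overlap (difference -0.06, exact permutation p = 0.333, or -0.04 without α-amanitin A), while the conditions overlapped in the log2 of the mean signal. The shares of bright probes over both sides were 6.17%, 5.95%, 6.50% and 5.92%.

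The fall of signal with distance was summarised as the slope of the mean log2 window signal per doubling of distance between 0.1 and 20 Mb, over 664 windows of 29 probes. It was -0.29 and -0.34 in untreated A and B, and -0.18 and -0.31 in α-amanitin A and B. The slope of α-amanitin A was the shallowest and that of α-amanitin B lay between the untreated arrays (difference 0.07, exact permutation p = 0.667, or 0.007 without α-amanitin A). The slope of the log2 of the mean signal was -0.40 and -0.42 in the untreated arrays and -0.32 and -0.39 in the treated arrays, both of which were shallower (difference 0.06, exact permutation p = 0.333, or 0.02 without α-amanitin A). In every array the fall was steeper on the centromeric side, with slopes of -0.38, -0.43, -0.24 and -0.41, than on the telomeric side, with -0.20, -0.24, -0.12 and -0.21.

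The length of the dense stretch around the viewpoint showed the same split between the treated arrays. It was measured outward from the viewpoint for as long as at least 50% of 29 neighbouring probes were bright. It held 342 and 470 probes in untreated A and B, and 155 and 463 in α-amanitin A and B. On the centromeric side it reached 0.294 and 0.443 Mb in the untreated arrays, and 0.170 and 0.432 Mb in α-amanitin A and B. On the telomeric side the values were 0.412, 0.528, 0.149 and 0.523 Mb. With a limit of 25% the stretch held 646 probes in each untreated array, and 227 and 689 in α-amanitin A and B. α-Amanitin B thus had the longest stretch at this limit and α-amanitin A the shortest.

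**Figure D2:**
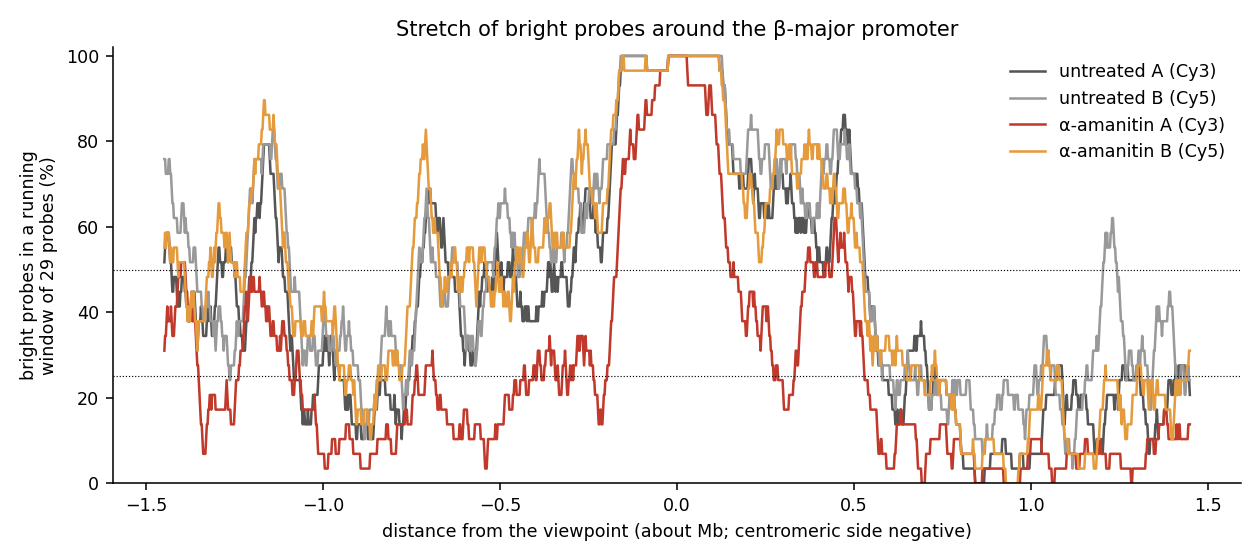
Percent of bright probes in a running window of 29 probes against the approximate distance in Mb from the viewpoint, 1 line per array, with dotted lines at 50% and 25%. Outward from the viewpoint the line of α-amanitin A drops under 50% after 0.170 Mb on the centromeric and 0.149 Mb on the telomeric side, and the other 3 arrays do so between 0.294 and 0.528 Mb.

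Across chromosomes, the excess of signal in cis was present in all 4 arrays. Chromosome 7 had mean log2 signals of 9.49 and 9.54 in untreated A and B, and 9.39 and 9.50 in α-amanitin A and B. Its bright probes made up 9.60%, 10.9%, 7.27% and 10.1%. On the 6 other chromosomes the shares of bright probes lay between 3.76% and 5.24% in any array. The mean log2 signal of chromosome 7 minus that of the 6 others was 0.30 and 0.36 in untreated A and B, and 0.19 and 0.31 in α-amanitin A and B. The difference between the conditions was -0.08 (exact permutation p = 0.667) and -0.02 without α-amanitin A. Put another way, chromosome 7 held 28.8% and 32.6% of all bright probes in the untreated arrays, and 21.8% and 30.4% in α-amanitin A and B.

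In trans, which chromosome stood apart depended on the measure. As the mean of log2 signals, chromosome 8 was the 1 of 6 without overlap. It overlapped as the log2 of the mean signal, with 9.97 and 10.01 against 10.09 and 9.996, and chromosome 14 did not, with 9.918 and 9.916 against 9.978 and 9.945 (exact permutation p = 0.333). Without dim probes chromosome 8 overlapped as well (exact permutation p = 0.667). Its mean log2 signal was 9.23 and 9.20 in untreated A and B, and 9.26 and 9.24 in α-amanitin A and B (difference 0.03, exact permutation p = 0.333, or 0.02 without α-amanitin A). On the median scale described below this direction was the opposite. The shares of bright probes on it were 4.53%, 4.09%, 5.24% and 4.63%. The gap between the nearest treated and untreated shares was smaller than the gap between the duplicates of either condition. Of 10 equal parts of chromosome 8 in probe order, 2 were higher in both treated arrays and 1 was lower. On the other trans chromosomes 1 to 3 such parts were higher and 0 or 1 were lower, and on chromosome 7 all 10 overlapped. Chromosome 11 had 9.240 and 9.240 in the untreated arrays, and 9.273 and 9.231 in α-amanitin A and B. On chromosomes 10, 12, 14 and 15 the differences lay between 0.005 and 0.010, and without α-amanitin A between -0.0035 and 0.0035. α-Amanitin A had the highest signal of the 4 arrays on all 6 trans chromosomes and the lowest on chromosome 7, although on the median scale it was not the highest in trans.

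Quantile normalization fixes the overall spread of each array, and the lower contrast of both treated arrays is removed by it. The levels were therefore also taken from each array divided only by its own median. On that scale all 6 trans chromosomes were lower in both treated arrays, so that the direction in trans turned. Over these 6 chromosomes the mean log2 of the signal over the array median was 0.22 and 0.26 in untreated A and B, and 0.15 and 0.16 in α-amanitin A and B. Chromosome 7 had 0.53, 0.68, 0.31 and 0.46, without overlap. Chromosome 7 minus the 6 others did not overlap on this scale either. It was lower in both treated arrays (difference -0.13, exact permutation p = 0.333, or -0.06 without α-amanitin A). By distance, the treated arrays were below the untreated ones without overlap in the 6 classes from 0.5 Mb outward. From 0.5 to 2 Mb the gap was narrow, with 1.390 in untreated A and 1.388 in α-amanitin B. The 210 probes for the human β-globin locus, a control with no target in mouse, had -0.23, -0.22, -0.47 and -0.36 and were also lower in both treated arrays. The part of the lower contrast in these values was not tested. In the class to 0.5 Mb the arrays still overlapped on this scale, with 3.97, 4.49, 2.51 and 4.00, as α-amanitin B remained above untreated A. The share of probes over 4 times the array median did not overlap there, with 72.9% and 81.5% against 44.1% and 71.4%. The conditions thus overlapped or not in most classes depending on the scaling, while α-amanitin A was the lowest array in the viewpoint window and in all 7 classes outside it on the median scale.

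**Figure D3:**
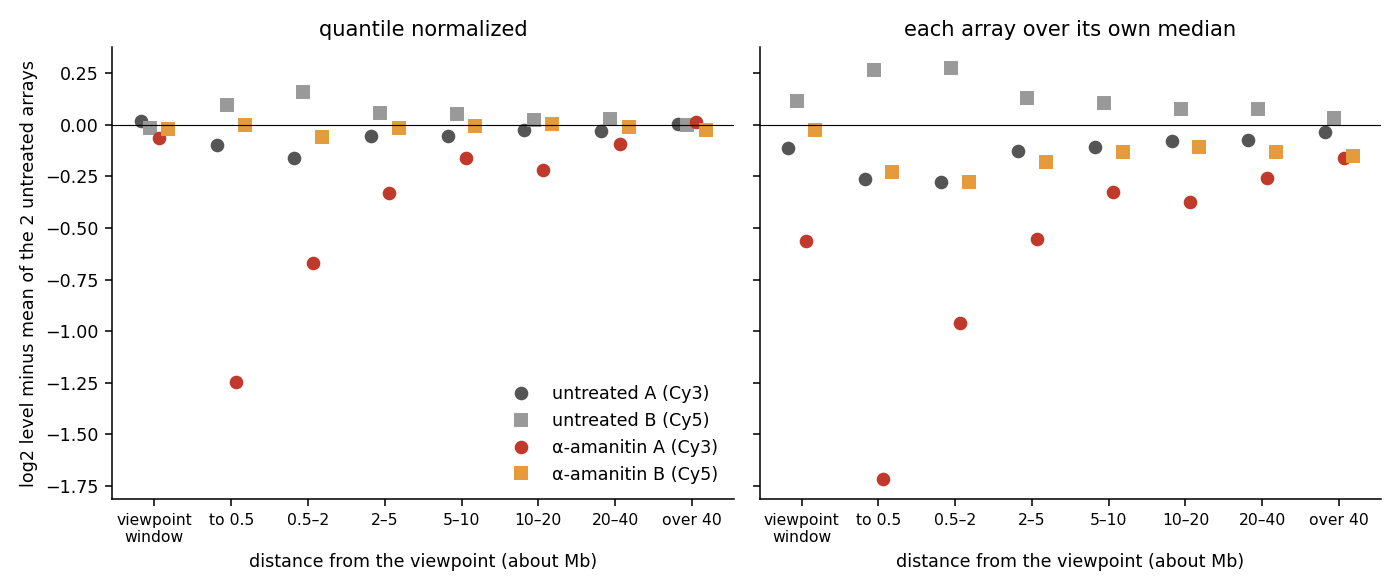
Log2 level of each array minus the mean of the 2 untreated arrays, by distance class, after quantile normalization (left) and with each array divided only by its own median (right). On the left α-amanitin B stays within 0.0613 of the untreated mean in the 7 classes outside the viewpoint window, and on the right it lies below that mean in all classes.

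The probes that were bright in both untreated arrays were then followed in each treated array. On chromosome 7 there were 2977 such probes, and α-amanitin A held 47.9% of them among its own bright probes, α-amanitin B 72.8%. On the 6 trans chromosomes the order of the treated arrays was the opposite. There α-amanitin A held between 71.6% and 76.9% of these probes and α-amanitin B between 57.4% and 63.1%. Within chromosome 7 the shares held by α-amanitin A were 60.7% to 0.5 Mb, 32.6% from 0.5 to 2 Mb, 37.1% from 2 to 5 Mb, 39.9% from 5 to 10 Mb, 39.3% from 10 to 20 Mb and 44.1% from 20 to 40 Mb. Over 40 Mb the share was 70.5%, close to that in trans. For α-amanitin B the same classes gave 92.3%, 73.6%, 76.8%, 74.6%, 73.6% and 69.5%, and 60.9% over 40 Mb. α-Amanitin A thus shared fewer bright probes with untreated cells than α-amanitin B within 40 Mb of the viewpoint. It shared more beyond this distance and on the other chromosomes. Every array has the same number of bright probes by definition. Fewer of them on chromosome 7, 4200 in α-amanitin A against 5852 in α-amanitin B, therefore leave more elsewhere. The part of this quota in the opposite order in trans was not tested.

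**Figure D4:**
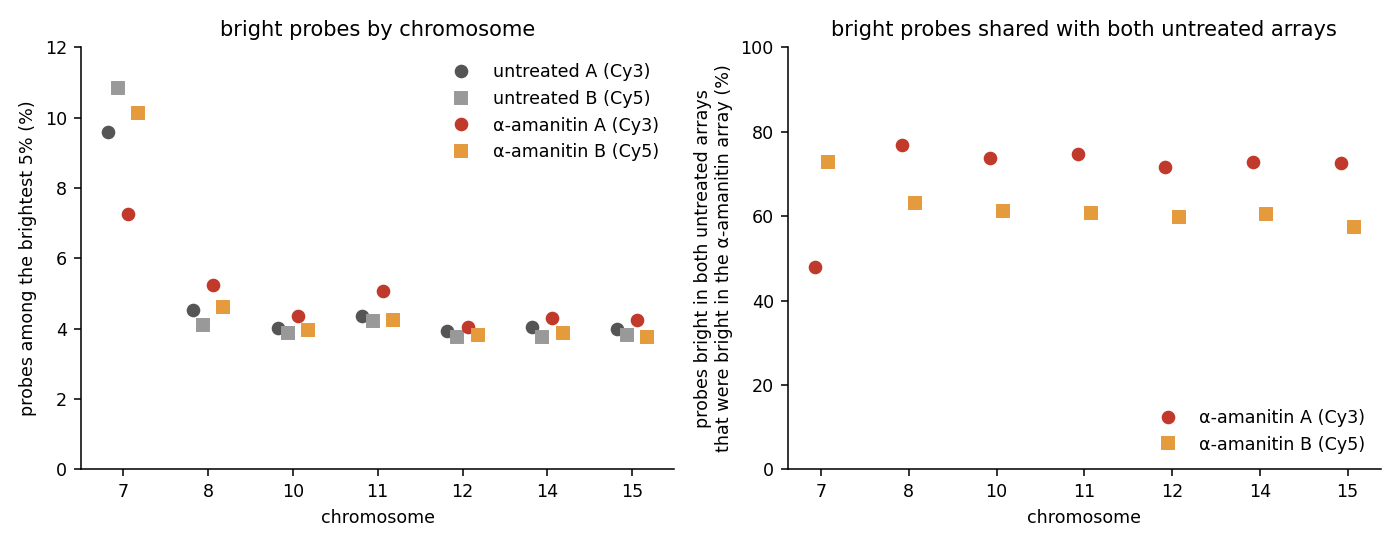
Percent of probes among the brightest 5% of each array by chromosome (left), and percent of the probes bright in both untreated arrays that were also bright in each α-amanitin array (right). α-Amanitin A is below α-amanitin B on chromosome 7, with 47.9% against 72.8%, and above it on the 6 other chromosomes.

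Similarity of the profiles was described with Spearman's rho across windows of 29 probes, which are not independent replicates, and the pairs share arrays. In the class to 0.5 Mb (16 windows) rho was 0.932 between the untreated arrays, 0.812 between the treated arrays and 0.853 on average over the 4 pairs of an untreated and a treated array. From 0.5 to 2 Mb (50 windows) these values were 0.717, 0.553 and 0.670. From 2 to 5 Mb they were 0.746, 0.659 and 0.731, and over 40 Mb 0.601, 0.556 and 0.589. On the 6 trans chromosomes the untreated pair had 0.575 to 0.649, the treated pair 0.525 to 0.623 and the pairs between conditions 0.561 to 0.622 on average. These averages hide differences between the pairs. Over chromosome 7 rho with untreated A was 0.582 for α-amanitin A and 0.768 for α-amanitin B, against 0.702 between the untreated arrays. With untreated B it was 0.630 and 0.660. In every class outside the viewpoint and on every chromosome the treated duplicates were less alike than the untreated ones.

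Single windows were tested with limma over all 7 chromosomes (13261 windows, log2 of the mean signal of 29 probes). None passed an adjusted p of 0.05 (0% called, lowest adjusted p = 0.871 with Benjamini-Hochberg adjustment). At an unadjusted p under 0.05 there were 222 windows higher (1.67%) and 229 lower (1.73%) in treated cells. This even split depended on the arrays: it was 743 higher and 145 lower without α-amanitin A, 749 and 277 without α-amanitin B, 78 and 616 without untreated A, and 74 and 397 without untreated B. Windows in which both treated arrays were above both untreated ones made up 18.1% of all, and those in which both were below made up 18%. Within 2 Mb of the viewpoint there were 67 windows, of which 7 were above (10.4%) and 17 below (25.4%). Of these 67 windows, 8 were lower at an unadjusted p under 0.05 (11.9%) and 0 higher. All 8 had an adjusted p of 0.871 by limma. They lay about 0.48 and 0.06 Mb from the viewpoint on the centromeric side and 0.24, 0.48, 0.54, 0.78, 0.96 and 1.56 Mb on the telomeric side. Both treated arrays were below both untreated ones in each of these 8 windows, which their selection for a small p and a lower signal favours. At 0.48 Mb on the telomeric side the log2 signal was 14.28 and 14.42 in untreated A and B against 13.79 and 13.88 in α-amanitin A and B. At 1.56 Mb it was 12.80 and 13.64 against 11.39 and 11.38. All 8 stayed lower under each alternative that kept these windows. Leaving out an array could not turn this direction, because the conditions did not overlap in these windows. Pairing the arrays or leaving out the trend keeps the same difference and could not turn it either. Only the changes of normalization, background correction, averaging and probe selection could have turned it. In the alternatives with all arrays kept, between 2 and 8 of the windows had an unadjusted p under 0.05 by limma. The 8 windows were chosen after their values were seen, and neighbouring windows are not independent.

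The windows with the smallest p in each direction were on chromosomes 7, 14 and 15. The lowest p belonged to the window next to the viewpoint on its centromeric side, described above (log2 difference -0.16, SE 0.02, adjusted p = 0.871 by limma). On chromosome 15, probes 5627 to 5655 had 9.35 and 9.30 in the untreated arrays and 8.74 and 8.75 in the treated arrays. On chromosome 14, probes 47039 to 47067 had 12.42 and 12.04 against 8.60 and 9.34 (log2 difference -3.26, SE 0.49, adjusted p = 0.871 by limma). When probe signals were averaged on the log2 scale the difference of this window became -0.82, and with its adjusted p of 0.0311 by limma it was the 1 window called by any alternative. Higher in treated cells were probes 4235 to 4263 of chromosome 15, with 9.27 and 9.09 against 12.10 and 11.94 (log2 difference 2.84, SE 0.43, adjusted p = 0.871 by limma). Probes 29623 to 29651 of chromosome 7, about 17.04 Mb centromeric of the viewpoint, had 8.93 and 9.13 against 12.20 and 11.36. Probes 17749 to 17777 of chromosome 15 had 9.10 and 9.09 against 11.80 and 11.27. The conditions did not overlap in any of these 6 windows, which were chosen for their small p.

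The brightest window of each class was chosen by the highest mean over all 4 arrays, treated and untreated together. That it was bright in both conditions therefore follows largely from the choice. From 0.5 to 2 Mb it lay about 1.14 Mb centromeric, with log2 signals of 14.60 and 14.05 in untreated A and B, and 13.54 and 14.36 in α-amanitin A and B. From 2 to 5 Mb it lay 4.44 Mb telomeric, with 14.43 and 14.39 against 13.17 and 14.24, so that both treated arrays were lower. Farther out the conditions overlapped or the treated arrays were higher. At 5.94 Mb telomeric the values were 13.03 and 13.19 against 13.53 and 13.01. At 16.56 Mb telomeric they were 14.18 and 13.95 against 13.82 and 14.28. At 30.48 Mb centromeric they were 13.69 and 13.49 against 13.73 and 14.16, and at 57.30 Mb centromeric 13.03 and 12.53 against 13.40 and 13.23. Both treated arrays were above both untreated ones in the last 2 windows, with log2 differences of 0.35 and 0.54 (adjusted p = 0.871 by limma for each).

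In trans the brightest windows, chosen in the same way, were dimmer. The brightest on chromosome 8 had 11.46 and 12.63 in untreated A and B against 13.16 and 12.43 in α-amanitin A and B. That on chromosome 10 had 12.63 and 11.83 against 12.25 and 12.75. The first 29 probes of chromosome 11 were its brightest window, with 11.64 and 12.22 against 12.90 and 12.40. That on chromosome 12 had 12.26 and 12.23 against 12.29 and 12.25, and was the most even. On chromosome 14 the values were 12.39 and 12.48 against 12.57 and 12.78, and on chromosome 15 12.44 and 12.46 against 12.23 and 12.39. The smallest adjusted p of these 6 windows was 0.871 by limma. The brightest trans windows varied between duplicates by up to 1.18 on the log2 scale, as on chromosome 8.

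**Figure D5:**
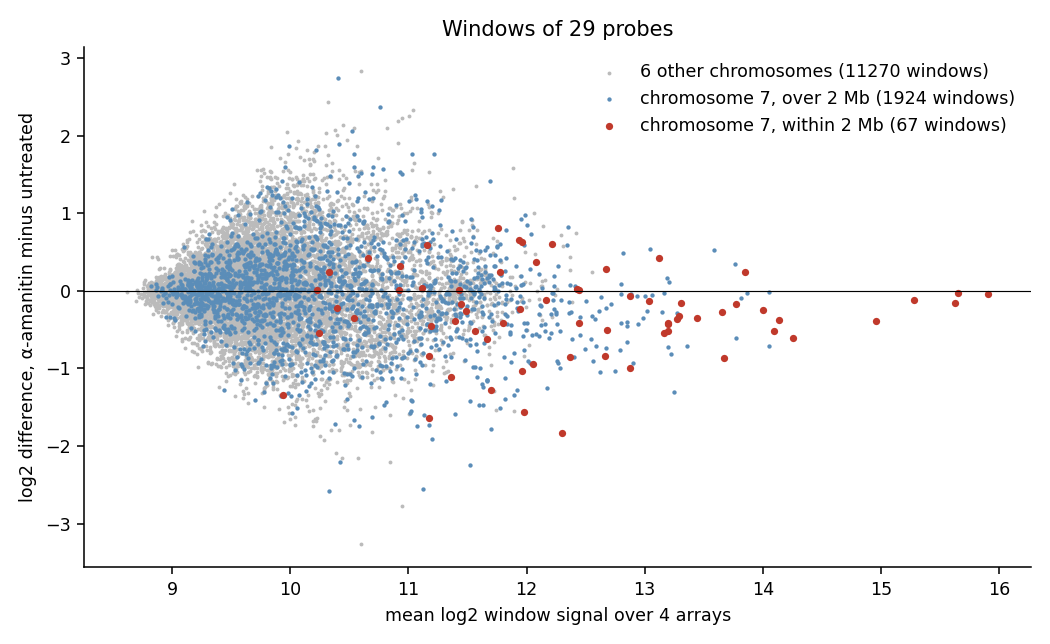
Log2 difference between α-amanitin and untreated arrays against the mean log2 signal over the 4 arrays, 1 point for each of 13261 windows of 29 probes. The brightest windows lie within 2 Mb of the viewpoint, where 17 of 67 (25.4%) were below in both treated arrays against 7 (10.4%) above. Over all windows these shares were 18% and 18.1%. α-Amanitin A was the lowest of the 4 arrays in 40 of the 67 windows.

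A separate set of 124 probes tiles the mouse β-globin locus itself. Its mean log2 signal was 15.04 and 14.95 in untreated A and B, and 14.38 and 14.51 in α-amanitin A and B (difference -0.55, exact permutation p = 0.333, or -0.48 without α-amanitin A). Both treated arrays were below both untreated ones here, and the difference exceeded the SDs of 0.07 and 0.10 between duplicates. The same held on the median scale, with 6.07 and 6.28 against 5.04 and 5.61. The chromosome 7 probes to 0.5 Mb differed from this set, with a difference of -0.001 without α-amanitin A. The locus probes lie near the top of the scanner range, and leaving out saturated probes was not tried on them. The human control probes were lower in both treated arrays as well, with 8.80, 8.80, 8.46 and 8.58.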

How the data were processed

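4C products of 4 samples (2 untreated, 2 treated with α-amanitin) had been hybridized to arrays of 385000 probes, and the second sample that each array held in its other channel was left out. What the authors deposited is the raw intensity per probe from NimbleScan (version 2.3.19), neither background corrected nor normalized. The 5th sample, treated with DRB, was not used here. Groups and replicate letters come from the sample titles. The distance classes, chromosomes and tests were chosen with earlier results of these data known.

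The position field was 0 for every probe, so probes were ordered by the number in their identifiers. On chromosome 7 these numbers run from 405 to 80642, and at 60 kb per 29 probes the 57765 probes span 119.5 Mb, so distances in Mb are approximate and no gene was assigned to a window. Intensities were quantile normalized over the 4 arrays and taken as log2. Levels are means of log2 intensity over the probes of a class or chromosome, compared with exact permutation tests (6 label assignments, two-sided). Non-overlapping windows of 29 probes (log2 of the mean) were tested with limma 3.58.1 in R 4.3.3 (lmFit, eBayes with a trend, Benjamini-Hochberg adjustment over 13261 windows), after the script was tested on simulated data. Other steps used Python 3.11.15, numpy 2.4.6, scipy 1.17.1, pandas 2.3.3 and matplotlib 3.10.9.

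The windows named are the 3 with the smallest p in each direction, the window on the viewpoint, and the brightest window of each distance class and of each other chromosome. Alternatives left out quantile normalization, added a normexp background correction (offset 50), changed the averaging, left out dim or saturated probes or each array in turn, blocked on the replicate letter, and changed the share called bright, the slope range, the window (15 and 59 probes) and the trend.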

Additional observations from a re-analysis of the deposited data

How the results depend on the processing

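Some of the choices tried on the levels of the classes, chromosomes and slopes turned none of the directions. These were normexp background correction, leaving out dim probes or saturated probes, distances counted by identifier number and leaving out either untreated array. The replicate block keeps the same difference in this balanced design, so it could not turn any of the directions. Leaving out α-amanitin A turned all those that follow, except the pair over 40 Mb, which turned without α-amanitin B. Over the arrays left out in turn the difference ranged from -0.218 to 0.0056 from 10 to 20 Mb, from -0.0249 to 0.0123 over 40 Mb, from -0.0093 to 0.0327 on chromosome 11, from -0.00022 to 0.0105 on chromosome 12 and from -0.0035 to 0.0148 on chromosome 15. On the centromeric side it ranged from -0.801 to 0.0297 (0.5 to 2 Mb), -0.135 to 0.00052 (5 to 10 Mb), -0.248 to 0.0125 (10 to 20 Mb), -0.0555 to 0.0074 (20 to 40 Mb) and -0.0244 to 0.0152 (over 40 Mb), and that of the slope from -0.0035 to 0.164. On the telomeric side it ranged from -1.08 to 0.0334 (to 0.5 Mb) and -0.250 to 0.0054 (2 to 5 Mb).

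Without quantile normalization the direction turned on 6 chromosomes, to -0.086 (8), -0.080 (10), -0.110 (11), -0.079 (12), -0.078 (14) and -0.085 (15). As the log2 of the mean signal it turned over 40 Mb (0.026, centromeric side 0.027) and from 20 to 40 Mb on the centromeric side (0.022). As the share of the brightest 5% it turned over 40 Mb (0.149 percentage points, centromeric side 0.175). As the share of the brightest 1% it turned from 5 to 10 Mb (0.165, centromeric side 0.145, telomeric side 0.186), from 20 to 40 Mb (0.034, centromeric side 0.212) and over 40 Mb (0.065, centromeric side 0.070). In the viewpoint window both shares differed by 0. As the log2 of the mean signal the conditions ceased to overlap to 0.5 Mb, from 0.5 to 2 Mb, in the slope and on chromosome 14, and came to overlap on chromosome 8, as they did there without dim probes. In the viewpoint window the conditions came to overlap without saturated probes and without quantile normalization. The cause of these changes was not tested.

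For the windows, limma called 0 under every alternative except the mean of log2 signals, which called 1. Unadjusted p-values under 0.05 were found for 451 windows, for 285 with the replicate block (0 called) and for 1436 without quantile normalization, of which 1367 were lower. Leaving out each array in turn gave 471 to 1026 and called 0. Without quantile normalization 6604 windows were lower and 484 higher in both treated arrays. Arrays with the same letter deviated in opposite directions (correlation -0.22 over 13261 windows), and the crossed pairing, added after this value was seen, gave 652 windows under 0.05 and called 0.

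Among the named windows, left-out arrays moved the brightest one on the telomeric side of the viewpoint from -0.15 to 0.0917, and those at 1.14 Mb from -0.781 to 0.0329, at 5.94 Mb from -0.10 to 0.42, at 16.56 Mb from -0.24 to 0.21 and on chromosome 10 from -0.13 to 0.67. Without quantile normalization the brightest windows turned to -0.089 (5.94 Mb), -0.0018 (chromosome 8), -0.211 (chromosome 12) and -0.014 (chromosome 14). As the mean of log2 signals they turned to -0.017 (5.94 Mb) and -0.077 (chromosome 10).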
